A study of Mus musculus with 15 samples.

Results

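The first screen of the series compared memory with naive B cells on 7 of its 15 oligonucleotide arrays. Its arrays were taken by their titles: 3 of naive cells, lettered A to C, and 4 of memory cells, lettered D to G. All 7 came from splenic B lymphocytes specific for the hapten NP, from mice with mVh186.2, a rearranged heavy chain transgene whose product gives many B cells an NP-binding receptor. The cells were sorted on a FACSVantage SE from spleens depleted of red cells, in a cold buffer with 0.05% azide, and the RNA was labelled with EnzoBio reagents from 1 to 4 ug of total RNA. Memory and naive cells carry the same transgene. The labels give neither the immunisation, its time, the age of the mice nor the markers that separated memory from naive cells. They call the replicates biological, without saying whether an array holds 1 mouse or several. The later second screen, used below only as a check, had 8 arrays: AA4.1-negative naive cells from transgenic Jk KO mice against memory cells raised by transfer of transgenic splenocytes into AM14/Vk8R recipients.

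Memory B cells are the long-lived descendants of B cells that answered an antigen. Many have switched to another antibody class, some carry mutated receptors, and on a second encounter they divide or turn into antibody-secreting cells faster than naive cells do. Both populations rest between encounters, and both circulate through the follicles of the spleen.

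The arrays fell into 2 kinds by their quality controls. The actin control, probed near both ends of the transcript, gave a 3'/5' intensity ratio of 1.15 on naive C and 1.12 on memory G but 2.77 to 4.22 on the other arrays. The Gapdh ratio was 0.865 and 0.798 on those arrays and 1.60 to 3.42 on the others. The first principal component, with 41.1% of the variance, set naive C and memory G apart from the other 5 arrays, and the second, with 19.4%, separated naive from memory cells. Naive C correlated better with memory G (0.912) than with naive A (0.875) or naive B (0.882). The labels give no batch for these arrays. Each group holds 1 of them, so results are also given for a fit in which this pair of arrays forms a block, which compares C with G and A and B with D, E and F. Every array was scaled to a trimmed mean of about 500, the median intensity ran from 103.4 to 153.7, and precision is limited by the small number of arrays.

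**Figure D1:**
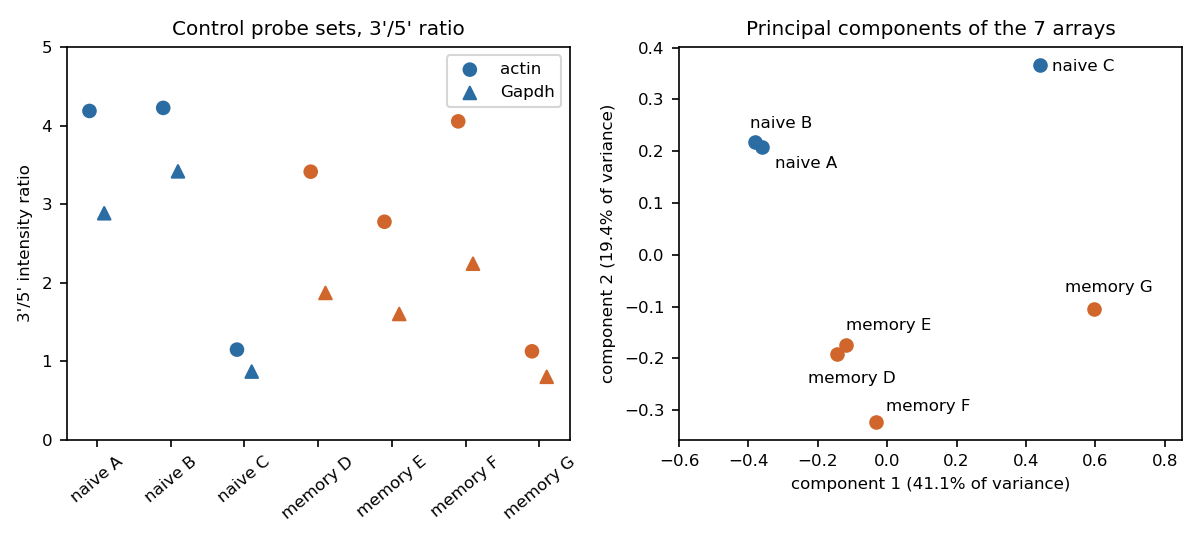
Quality controls of the 7 arrays. Left, 3'/5' intensity ratio of the actin (circles) and Gapdh (triangles) controls on each naive (blue) and memory (orange) array. Right, the first and second principal components of log2 intensity, with naive C and memory G at 0.44 and 0.60 on the first.

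Of 15866 genes and unnamed probe sets tested by limma with Benjamini-Hochberg adjustment at 0.05, 131 were called (0.826%). Of these 101 were higher in memory cells (0.637%) and 30 were lower (0.189%). Levels below are log2(intensity + 1), changes are memory minus naive on that scale with the standard error of the fit, and levels are compared only for the same probe set. The change was at least 2-fold for 84 of the genes that rose and 20 of those that fell. With naive C and memory G treated as such a block, 707 were called (4.46%), 363 higher (2.29%) and 344 lower (2.17%), and without these arrays 404 (2.55%) and 475 (2.99%). Counts of calls in gene lists below are to be read against these shares of all genes tested. All 131 genes called were also called in both of those fits, which reuse arrays of the main fit. All moved the same way from C to G, which follows from their arrays not overlapping and is no separate check. Calls fell to 53 higher without naive B or memory F and to 6 lower without naive B. Median centring of each array moved the median change of all genes from 0.02 to -0.17 and left 51 and 14 calls. In all 131 the memory arrays lay wholly above or wholly below the naive arrays, as they did, higher or lower, in 1080 (6.81%) and 712 (4.49%) of all those tested.

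Several S100 proteins and annexins, which bind calcium, were among the genes that rose. S100a6, a small calcium-binding protein, stood at 10.52, 10.54 and 10.25 on the naive arrays A to C and at 13.97, 14.11, 13.82 and 13.76 on the memory arrays D to G. All memory arrays lay above all naive arrays, and the groups differed by many times the spread within either (change 3.48 ± 0.14, limma adjusted p = 8.12e-06). S100a4, its relative, which binds myosin and is known from motile cells, read 7.27, 8.47 and 7.88 in naive and 12.39, 12.17, 12.43 and 11.61 in memory cells, a change of 4.28 ± 0.29. Anxa2, which binds membranes and actin together with an S100 partner, read 9.72, 10.20 and 9.74 in naive against 12.14, 12.04, 12.25 and 12.49 in memory cells, 5.07-fold higher (adjusted p = 0.000233). Of 17 S100 proteins and annexins tested these 3 rose and none fell, 16 had a change above 0, and the median of the list was 0.62 (all genes tested, 0.02). With the block, 9 were called higher and none lower (all genes tested, 2.29% and 2.17%). S100a10, the usual partner of Anxa2, read 12.36, 12.46 and 11.97 in naive and 13.22, 12.87, 13.01 and 12.59 in memory cells, which do not overlap (adjusted p = 0.177, with the block 0.00722). Another probe set of S100a10 stood further apart, at 11.83, 12.08 and 11.95 against 13.01, 12.82, 13.01 and 13.405. In the same arrays the summed intensity of the myeloid markers other than the brightest 2 was higher too, though most of these markers overlapped, as given below. S100a8 and S100a9 stand in both lists. The part of myeloid cells in these counts was not tested. Anxa5 and Anxa6, further membrane-binding annexins, changed by 0.53 ± 0.14 and 0.62 ± 0.17 (adjusted p = 0.0290 and 0.0335 with the block).

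**Figure D2:**
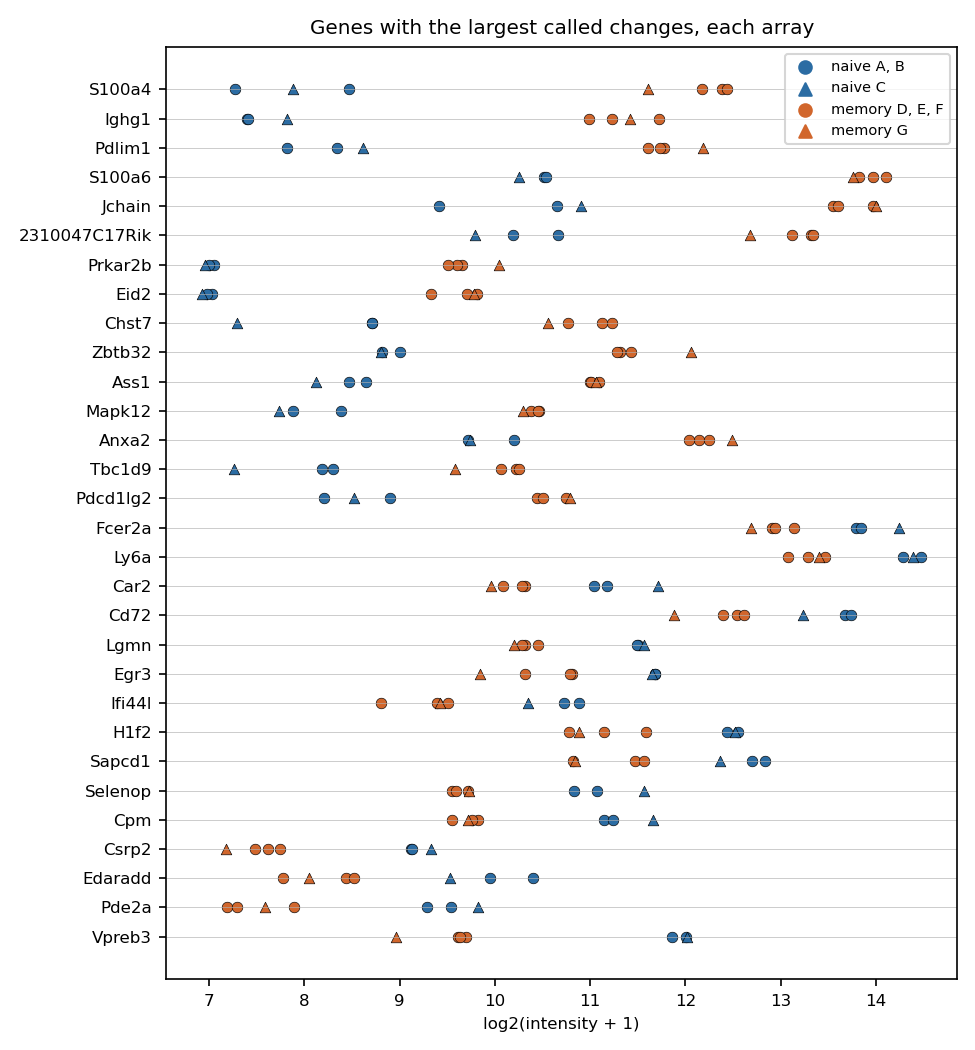
Log2(intensity + 1) of the 15 most raised and the 15 most lowered genes, 1 point per array, taken from called genes with both group means above the median of the screen. Only genes whose naive (blue) and memory (orange) arrays do not overlap were taken, so naive C and memory G (triangles) lie with their groups by choice.

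Several rises lay in the cytoskeleton. Pdlim1, a PDZ and LIM protein that ties alpha-actinin to actin fibres, was at 7.82, 8.35 and 8.62 in naive and 11.77, 11.74, 11.60 and 12.19 in memory cells, 11.8-fold higher (adjusted p = 0.000114). One of the other 2 probe sets of Pdlim1 did not follow it (change -0.03) and the other gave 2.26. Crip1, a small LIM protein and one of the brightest genes here, rose from 14.54, 14.55 and 14.39 to 15.08, 15.18, 15.37 and 15.19, a change of only 0.71 ± 0.10 but with a gap between the groups. Crip2, its relative, rose by 1.59 ± 0.22 and Vim, the intermediate filament protein, by 0.93 ± 0.15. Csrp2, another LIM protein, went the other way, from 9.12, 9.14 and 9.33 in naive to 7.75, 7.62, 7.49 and 7.18 in memory cells (change -1.68 ± 0.21, adjusted p = 0.00694). Of 44 actin regulators and LIM proteins tested, 4 rose (9.09%) and 1 fell (2.27%), against 0.637% and 0.189% of all genes tested. Of 28 microtubule genes, 2 rose (7.14%) and none fell. Those were Tubb6, a beta tubulin, and Tppp, which bundles microtubules. Tppp read 4.05, 2.38 and 5.71 in naive cells and 8.61, 8.09, 8.41 and 9.11 in memory cells. All 3 naive values lie below the median of all values (6.98), so its change of 4.50 ± 0.74 depends on the pseudocount and was 3.48 with a pseudocount of 16. Emp1, a membrane protein of epithelia with the largest change of the named genes, was as dim in naive cells (2.43, 2.38 and 4.58 against 8.27, 8.29, 8.30 and 7.51), and its change of 4.96 ± 0.80 became 3.52. Calls in this group that ended without 1 array were those of Csrp2 (adjusted p 0.0508 without naive B), Crip1 (0.0800 without naive A, 0.0748 B, 0.0584 memory E, 0.0627 F), Crip2 (0.0589 A, 0.0701 B, 0.0500 D, 0.0591 F) and Vim (0.0521 A, 0.0976 B, 0.0500 C, 0.0660 D, 0.0924 E, 0.106 F). The same was true of Tubb6 (0.0605 A, 0.0505 C, 0.1 D, 0.0847 E, 0.107 F), Tppp (0.0816 A, 0.124 D, 0.0889 E, 0.118 F, 0.0806 G) and Emp1 (0.179 D, 0.171 E, 0.171 F, 0.0599 G).

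Of 3 antibody constant region and J chain genes tested, 2 rose, and the other, Ighm, changed by -0.06. Ighg1, the constant region of class-switched IgG1, read 7.40, 7.41 and 7.82 in naive and 11.23, 10.99, 11.73 and 11.42 in memory cells, 13.9-fold higher (adjusted p = 9.48e-05), and its 5 other probe sets rose by 1.74 to 3.86 in the same direction. Jchain, which links antibody units into polymers, was at 9.41, 10.65 and 10.91 in naive and 13.55, 13.60, 13.97 and 14.001 in memory cells, a change of 3.46 ± 0.32. Its naive arrays were spread widely (SD 0.80) but stayed well below every memory array. Among 68 endoplasmic reticulum and secretory genes, limma called none, 1 was higher and 4 lower at an unadjusted p under 0.05 (all genes tested, 1574 of 15866 or 9.92%), a t-test per gene called none, and the median change was -0.04. Xbp1, the regulator that expands the secretory apparatus, read 12.85, 12.94 and 13.01 in naive and 12.87, 12.82, 13.02 and 12.81 in memory cells, so that the groups overlap. Prdm1, the master regulator of antibody secretion, overlapped too (7.45, 7.61 and 7.87 against 7.68, 7.70, 8.38 and 8.47). Of 12 genes of antibody-secreting cells tested only Fkbp11, a folding enzyme of the endoplasmic reticulum, rose (1.23 ± 0.23, adjusted p = 0.0440), and its call ended whichever array was left out (0.179 without naive A, 0.197 B, 0.0550 C, 0.109 D, 0.128 E, 0.106 F, 0.0565 G). With the block, Fkbp11 and Txndc5 were called higher and none lower of these 12. Of the 68 endoplasmic reticulum and secretory genes the block called 1 higher (Pdia4) and 2 lower (Hspa5 and Dnajb9), against 2.29% and 2.17% of all genes tested. Ckap4, a membrane protein of the endoplasmic reticulum chosen after its values were seen, rose from 11.18, 11.20 and 10.97 to 12.63, 12.58, 12.90 and 12.82.

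Regulators of transcription moved in both directions. Zbtb32, a zinc-finger repressor known to restrain the recall response of memory B cells, was at 8.82, 9.001 and 8.80 in naive and 11.43, 11.31, 11.28 and 12.06 in memory cells, 6.26-fold higher (adjusted p = 0.000322). Aff3, a nuclear protein of lymphoid cells, read 8.22, 8.45 and 8.16 against 10.13, 9.94, 9.96 and 10.19. Eid2, an inhibitor of differentiation, rose by 2.68 ± 0.19 from 7.03, 6.98 and 6.93, which is at the median of the screen, to 9.82, 9.33, 9.71 and 9.78. Zbtb32 and Aff3 were the only 2 of 29 B lineage factors called, both higher, while the block called 2 higher and 6 lower. Among the 6 were Foxo1, a factor of naive and resting B cells (12.24, 12.24 and 11.85 against 11.56, 11.52, 11.36 and 10.88), and Bcl6, the germinal centre repressor (11.84, 12.14 and 11.14 against 11.02, 10.72, 10.58 and 9.86). Both were not called in the main fit (adjusted p = 0.139 and 0.161) and were 0.00113 and 0.000663 with the block. Bach2, a repressor that holds B cells back from the plasma cell fate, was split between the 2 kinds of array. It stood at 9.78 and 9.46 on naive A and B and 8.32, 8.58 and 8.59 on memory D, E and F, but at 11.74 on naive C and 10.66 on memory G. Its change was -1.29 ± 0.65 (adjusted p = 0.576) and with the block -1.11 (0.00181). Pax5, the factor that keeps B cell identity, had a change of -2.10 ± 0.75 (adjusted p = 0.358, with the block 0.0257) at 7.32, 7.495 and 9.28 against 5.37, 5.37, 5.19 and 7.81, with memory D, E and F below the median of the screen, and in the second screen it changed by 0.25.

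In the signalling families few members were called, in both directions. Prkar2b, a regulatory subunit of protein kinase A, read 7.05, 7.00 and 6.96 in naive and 9.65, 9.60, 9.51 and 10.05 in memory cells (change 2.70 ± 0.20, adjusted p = 0.00023). Pde2a, which breaks down cyclic AMP and cyclic GMP, went the other way, from 9.54, 9.28 and 9.82 to 7.18, 7.90, 7.30 and 7.59 (change -2.06 ± 0.24). They were the only 2 of 18 phosphodiesterase and protein kinase A genes called, and the block called 3 in each direction. Among those was Pde8a, another phosphodiesterase, at 8.63, 8.76 and 8.84 against 9.61, 9.69, 9.68 and 10.37 (adjusted p = 0.0569, with the block 0.00249). Mapk12, the p38 gamma kinase, stood at 8.39, 7.88 and 7.74 in naive and 10.46, 10.38, 10.45 and 10.30 in memory cells, and Prkcz, an atypical protein kinase C, rose by 3.16 ± 0.38. Ptpn22, a phosphatase that damps antigen receptor signals, rose from 10.89, 11.03 and 11.25 to 12.36, 12.21, 12.36 and 12.88. Cd72, an inhibitory coreceptor, fell from 13.68, 13.74 and 13.23 to 12.54, 12.61, 12.39 and 11.88 (change -1.19 ± 0.20). Dok2, a docking protein that restrains kinases, rose by 1.19 ± 0.20, and Lck, a Src-family kinase, fell by 0.95 ± 0.16. Rgs10, which shortens G protein signals, fell from 11.37, 11.46 and 11.20 to 10.71, 10.46, 10.33 and 10.28. Rgs2, of the same family, was at 13.16, 12.999 and 12.71 against 11.72, 12.07, 11.92 and 10.42 and was not called (adjusted p = 0.143, with the block 0.00177). The calls of Cd72 (0.140 without naive A, 0.153 B, 0.0710 memory D, 0.0519 E, 0.109 F), Dok2 (0.0502 A, 0.114 B, 0.1 D, 0.119 E, 0.126 F), Rgs10 (0.147 A, 0.186 B, 0.101 E, 0.122 F) and Lck (0.175 A, 0.201 B, 0.109 D, 0.118 E, 0.0795 F) ended without 1 array.

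Both intracellular calcium release channels named here rose. Ryr1, a ryanodine receptor best known from muscle, read 9.39, 9.35 and 9.61 in naive and 10.76, 10.34, 10.71 and 10.88 in memory cells, 2.34-fold higher (adjusted p = 0.0103). Itpr1, the receptor for inositol trisphosphate, read 11.23, 11.13 and 11.04 against 11.94, 11.99, 11.94 and 11.78, 1.72-fold higher. They were the 2 genes called of 25 calcium channels and pumps, whose median change was 0.11. The call of Ryr1 ended without naive A (adjusted p 0.0605), B (0.0723), memory D (0.0541) or F (0.0549), and that of Itpr1 without A (0.0744), B (0.114), D (0.0902), E (0.0850) or F (0.0962).

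On the surface, several ligands and receptors rose in memory cells. Pdcd1lg2, the PD-1 ligand PD-L2 and a known memory marker, was at 8.21, 8.90 and 8.52 in naive and 10.44, 10.51, 10.75 and 10.79 in memory cells (change 2.08 ± 0.20, adjusted p = 0.00106). It was the 1 called of 8 memory surface molecules, whose median change was 0.44. Cd86, a costimulatory ligand of the same list, read 10.996, 11.20 and 10.54 against 11.62, 11.66, 11.69 and 11.37 (adjusted p = 0.164, with the block 0.00722). Adora2a, a receptor for adenosine that raises cyclic AMP, rose from 8.30, 7.80 and 7.82 to 9.66, 9.92, 9.74 and 10.63. Of 17 extracellular purine genes it was the only one called, against 6 higher and 1 lower with the block. Nt5e, the enzyme CD73 that makes adenosine, read 7.18, 5.97 and 7.76 against 8.32, 9.002, 9.16 and 8.79 (adjusted p = 0.0983, with the block 0.0194), and Ada, which breaks adenosine down, 8.35, 8.24 and 8.30 against 9.26, 8.997, 9.10 and 9.22 (adjusted p = 0.0573, with the block 0.0147).

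Further receptors rose too. Bmpr1a, a BMP receptor, rose by 2.36 ± 0.33. Hepacam2, an immunoglobulin-domain membrane protein, read 6.49, 6.94 and 6.64 in naive and 9.81, 10.09, 10.33 and 9.90 in memory cells. Slamf9, a SLAM family receptor chosen after its values were seen, read 9.32, 9.44 and 9.49 against 10.94, 10.76, 11.21 and 11.25. Itgb7, the integrin chain that pairs with alpha 4 for gut homing, rose by 0.86 ± 0.12, Nrp2, a semaphorin receptor, by 1.42 ± 0.21 and Il5ra, the interleukin 5 receptor, by 0.97 ± 0.16. Itgb1, the beta 1 integrin chain, was split like Bach2, at 9.38, 9.17 and 10.70 against 10.65, 10.31, 10.74 and 11.55 (adjusted p = 0.374, with the block 0.00175). The calls ended without 1 array for Itgb7 (0.0507 without naive A, 0.0590 B), Nrp2 (0.0593 B, 0.0688 D, 0.0617 E, 0.0690 F) and Il5ra (0.134 A, 0.163 B, 0.0503 C, 0.105 D, 0.122 F).

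Genes of sugar chains were among the calls. Chst7, a sulfotransferase acting on carbohydrates, read 8.71, 8.71 and 7.29 in naive and 11.23, 10.77, 11.12 and 10.55 in memory cells, 6.40-fold higher, with naive C and memory G each lowest in their group. St6gal1, which adds the sialic acid that CD22 recognises, rose from 13.23, 13.30 and 13.36 to 14.01, 14.03, 14.21 and 14.24. Lgals1 and Lgals3, galectins that bind galactose-bearing chains, rose by 1.33 ± 0.25 and 1.27 ± 0.19. Of 36 galectin and glycosyltransferase genes, which do not include Chst7, 4 rose (11.1%, all genes tested 0.637%) and none fell. Their median of 0.14 became -0.05 under median centring. Calls that ended without 1 array were St6gal1 (0.0605 without naive A, 0.0591 B), Lgals3 (0.0807 B, 0.0757 F) and Lgals1 (0.131 A, 0.0723 B, 0.0609 C, 0.156 D, 0.103 E, 0.165 F).

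Further rises stood outside these groups. Ass1, the argininosuccinate synthase that makes arginine from citrulline, was at 8.47, 8.65 and 8.12 in naive and 10.999, 11.01, 11.10 and 11.06 in memory cells, with an SD of only 0.05 over the memory arrays (change 2.63 ± 0.16). It was the only one of 22 genes of arginine and polyamine metabolism called. Tbc1d9, a protein with a Rab-regulating domain, rose by 2.11 ± 0.28, and 2310047C17Rik, a gene without an assigned role here, by 2.90 ± 0.23. Plscr1, a phospholipid scramblase, rose by 1.62 ± 0.20 and Pmaip1, the death-promoting protein Noxa, by 1.06 ± 0.16. The call of Pmaip1 ended without naive B (0.0990) or memory D (0.0767), E (0.0730) or F (0.0712). Chosen after their values were seen, Myadm, a membrane protein of myeloid and other cells, read 11.40, 11.24 and 11.48 against 13.48, 13.06, 13.37 and 13.22. Fxyd5, a regulator of the sodium pump, read 11.07, 11.24 and 11.04 against 12.46, 12.40, 12.45 and 12.40, and Gimap4, a GTPase of lymphocytes, 13.10, 13.23 and 13.04 against 14.11, 14.30, 14.31 and 14.31.

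The falls were fewer, with a median size of 1.17 against 1.59 for the rises, and 1 gene each of the transitional and the follicular naive lists was among them. Vpreb3, which escorts newly made receptor chains in young B cells, was at 11.86, 12.004 and 12.02 in naive and 9.61, 9.70, 9.64 and 8.96 in memory cells (change -2.48 ± 0.20, adjusted p = 0.000322). It was the only one called of 5 transitional B cell genes tested, whose median change was -0.03. Fcer2a, the low-affinity IgE receptor CD23 of follicular B cells, fell from 13.79, 13.85 and 14.24 to 12.90, 13.14, 12.94 and 12.69. It was the only one of 13 follicular naive genes called, with a list median of -0.29, and the block called 6 lower and none higher (all genes tested, 2.17% and 2.29%). Satb1, a chromatin organiser of that list, read 12.38, 12.46 and 12.37 against 12.02, 11.85, 11.89 and 11.44 (adjusted p = 0.152, with the block 0.0103). Ccr7, the receptor that draws lymphocytes into T zones, read 10.90, 10.51 and 11.71 against 9.996, 9.88, 9.87 and 10.86, and the groups overlap only through memory G (adjusted p = 0.362, with the block 0.00467). The call of Fcer2a ended without naive B (0.0590) or memory D (0.0519) or F (0.0658).

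Membrane and lysosomal enzymes fell as well. Cpm, a membrane carboxypeptidase, fell from 11.14, 11.24 and 11.66 to 9.82, 9.76, 9.55 and 9.72 (change -1.63 ± 0.16). Lgmn, the endosomal protease legumain, fell from 11.50, 11.49 and 11.57 to 10.46, 10.32, 10.29 and 10.20, and Selenop, a secreted selenium carrier, from 10.83, 11.08 and 11.56 to 9.72, 9.55, 9.59 and 9.73. Ly6a, the surface protein Sca-1 that interferon also raises, fell from 14.28, 14.47 and 14.39 to 13.08, 13.29, 13.46 and 13.40, a 2.10-fold difference in one of the brightest genes. Car2, a carbonic anhydrase, fell by 1.15 ± 0.19, Edaradd, an adaptor of a TNF receptor, by 1.76 ± 0.26, H1f2, a linker histone, by 1.40 ± 0.19 and Sapcd1, whose role is not described here, by 1.46 ± 0.22. Calls that ended without 1 array were those of Car2 (0.0914 without naive B, 0.0757 D, 0.0741 E, 0.109 F), Edaradd (0.0797 A, 0.0827 B, 0.0519 D), H1f2 (0.0640 B) and Sapcd1 (0.0923 A, 0.0942 B, 0.0694 F).

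Immediate early and NF-kB genes gave 1 call each. Egr3, a factor induced within minutes by receptor signals, read 11.68, 11.68 and 11.65 in naive and 10.81, 10.78, 10.31 and 9.85 in memory cells (change -1.23 ± 0.23, adjusted p = 0.0481). It was the only one of 24 immediate early genes called, and the block called 6 lower and 1 higher (all genes tested, 2.17% and 2.29%). Tifa, an adaptor upstream of NF-kB, had the largest fall of the named genes, from 8.28, 7.86 and 9.38 to 4.41, 5.23, 4.43 and 4.50, with all memory values below the median of the screen. Wwc2, a relative of the Kibra scaffold, fell the same way from 8.55, 7.66 and 8.18 to 5.20, 5.34, 5.91 and 4.95. Of 31 NF-kB genes Tifa alone was called, and the block called 4 lower. Bcl3, a nuclear partner of NF-kB, missed the threshold (10.85, 10.96 and 10.45 against 9.85, 9.56, 9.89 and 9.16, adjusted p = 0.0517, with the block 0.000683). The calls ended for Egr3 (0.179 without naive A, 0.201 B, 0.0739 C, 0.0710 D, 0.0730 E, 0.179 F), Tifa (0.197 A, 0.133 B, 0.123 C) and Wwc2 (0.343 A, 0.186 B, 0.108 C, 0.0865 D, 0.0806 E, 0.0526 F).

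Interferon-stimulated genes, whose products block viruses, leaned lower in memory cells without passing the main test. Limma called none of 39 tested, a t-test per gene called none, and 15 were lower and 1 higher at an unadjusted p under 0.05, a level that 9.92% of all genes tested passed. Their median change was -0.24, and the memory arrays lay wholly below the naive arrays in 13 of them and above in 1 (all genes tested, 4.49% below and 6.81% above). With the block 8 were called lower (Ifit1, Ifit2, Ifit3, Ifi44, Isg20, Usp18, Trim30a and Cmpk2) and none higher, against 2.17% and 2.29% of all genes tested. Ifit3, which binds viral RNA complexes, read 10.36, 10.36 and 10.54 in naive and 9.22, 9.44, 9.52 and 9.99 in memory cells (adjusted p = 0.0993, with the block 0.00722). Ifit1, its relative that recognises uncapped RNA, read 9.64, 9.52 and 9.49 against 8.48, 8.70, 8.89 and 9.01 (0.109, with the block 0.0285). Usp18, which removes ISG15 from proteins and damps the receptor, read 10.91, 10.92 and 10.96 against 9.56, 9.89, 10.40 and 9.50 (0.0630, with the block 0.00986). Ifi44l, a relative of Ifi44 that is not in the list, passed the main test (10.88, 10.73 and 10.35 against 8.81, 9.40, 9.50 and 9.42, change -1.37 ± 0.21, adjusted p = 0.0205), and its call ended without naive A (0.110), naive B (0.114), memory E (0.0633) or memory F (0.0563).

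Interferon-stimulated promoters often hold a pair of GAAA boxes. The stretches below hold it upstream of Ifit1 and Ifit3, which were lower in memory cells with the block. They are from RefSeq, GRCm38.p6, 5′ to 3′ on the gene's strand, with the matches in capitals as their reverse complement.
Ifit1, chr19:34640755-34640843, plus strand: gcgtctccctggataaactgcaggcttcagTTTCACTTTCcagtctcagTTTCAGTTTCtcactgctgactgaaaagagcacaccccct
Ifit3, chr19:34583343-34583446, plus strand: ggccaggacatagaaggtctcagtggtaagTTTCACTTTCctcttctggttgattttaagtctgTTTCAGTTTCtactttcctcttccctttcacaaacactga
The motif searched was GAAA, any 2 bases and GAAA again, on either strand in the 250 bases before the start. It is in 936 of all 27025 promoters (3.46%) and in 12 of the 27 interferon-stimulated genes tested that have a promoter in the table (44.4%). Of the 8 lower with the block, 7 have a promoter there and 3 hold it (42.9%), against 44.4% over the whole list. A match describes the sequence and is no measured binding site.

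Of 70 gene lists counted, 31 had no call, and these covered most of the housekeeping machinery. Only 0.826% of all genes tested were called. A count of 0 in lists of this size is near that share and does not set them apart. All 75 ribosomal protein genes changed by between -0.21 and 0.15, none had an unadjusted p under 0.05 by limma, and neither the block nor a t-test called any. The same counts of 0 held for 57 subunits of the respiratory chain, with changes from -0.31 to 0.35. Of 45 Myc network and ribosome biogenesis genes limma called none, with 2 higher and none lower at an unadjusted p under 0.05. Of 40 proteasome subunits it called none, with 1 higher and none lower, and a t-test called none in either list. Cell cycle and replication genes were mostly lower, with a median of -0.38 over 50 genes and 7 changes above 0. Limma and a t-test called none of them, 15 were lower and none higher at an unadjusted p under 0.05 (9.92% of all genes tested in either direction), and the block called 4 lower. Ezh2, the Polycomb methyltransferase that rises in dividing B cells, is not in that list but among the chromatin modifiers. It read 10.32, 10.55 and 10.53 in naive and 9.74, 9.71, 9.48 and 8.87 in memory cells (adjusted p = 0.0939, with the block 0.00943). Of 51 chromatin modifiers tested limma called none, the block called 1 higher and 2 lower, and the median change was -0.06. Under median centring the medians of the ribosomal, respiratory, Myc and proteasome lists became -0.22, -0.25, -0.14 and -0.18, in step with the shift of all genes.

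**Figure D3:**
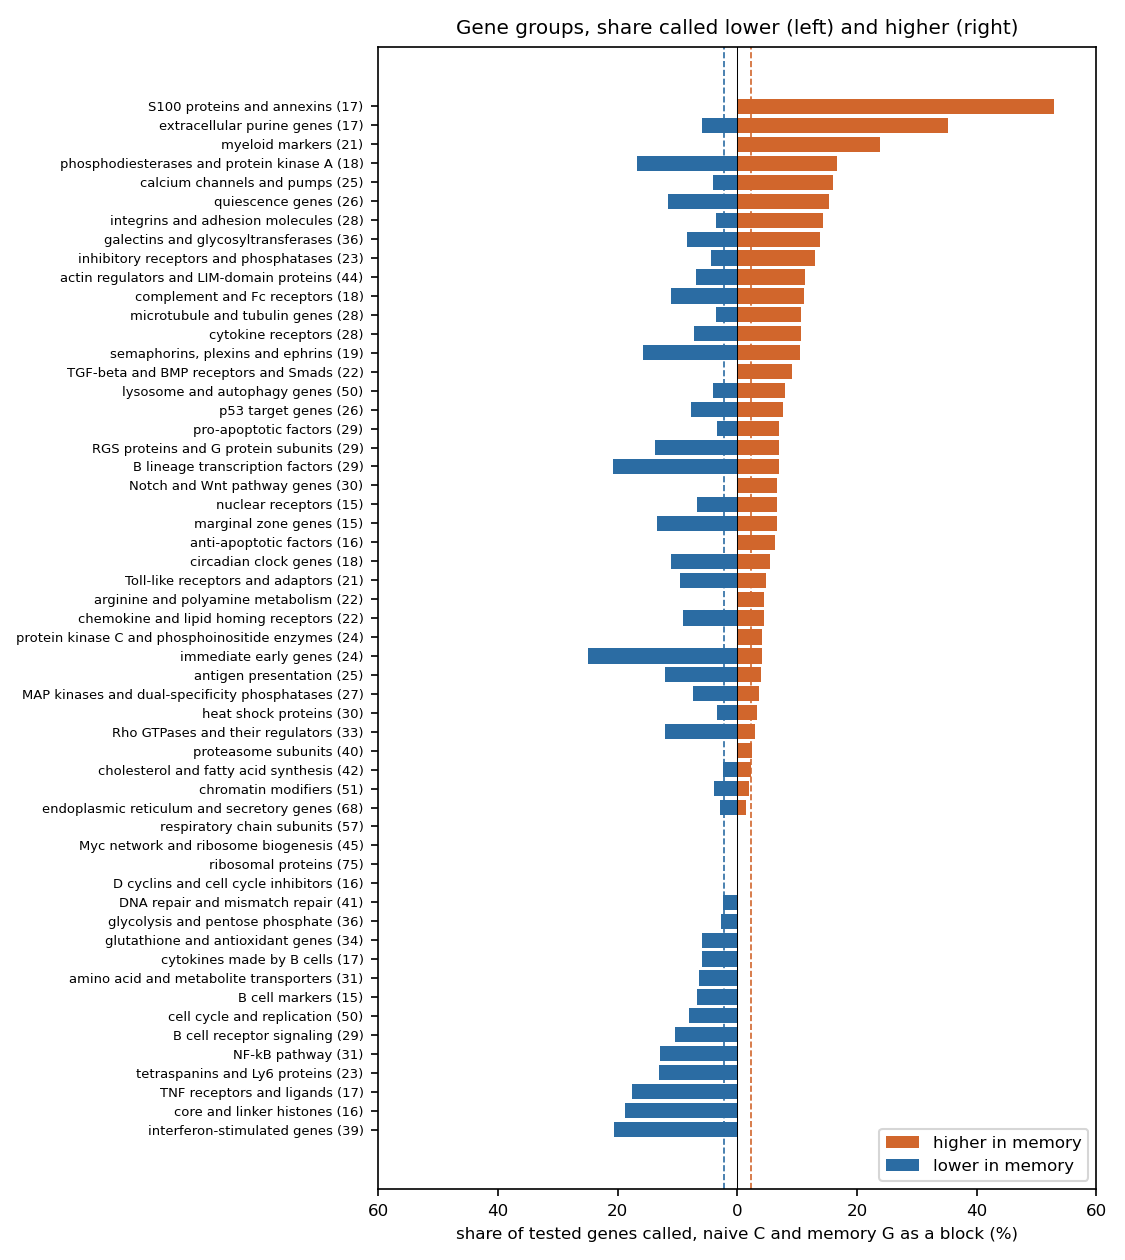
Share of each gene list called lower (blue, to the left) or higher (orange, to the right) in memory cells by the fit with naive C and memory G blocked, for lists with at least 15 genes tested (number in brackets). Dashed lines mark the shares over all genes tested, 2.17% lower and 2.29% higher. S100 proteins and annexins have the longest bar to the right and immediate early genes the longest to the left.

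Markers of other cells were checked, since a sort can carry them along. B cell markers were bright in both groups, and their summed intensity was 311400 to 338500 in naive and 267900 to 322600 in memory cells. Ms4a1, the surface protein CD20, lay between 14.45 and 15.05 on the 7 arrays. Myeloid markers summed to 45840 to 48070 in naive and 43030 to 56980 in memory cells. Ctss and Cybb, which B cells also express, made up 60.8 to 77.9% of that sum. Without these 2 genes it was 10240 to 11580 in naive and 12840 to 22360 in memory cells, so that every memory array lay above every naive one. In that remainder the gap between naive C and memory G rested on Lgals3, also counted among the galectins, at 10.18 and 11.405 on these arrays. In 6 of the 21 tested the memory arrays lay wholly above the naive arrays, and in none below (all genes tested, 6.81% and 4.49%). Of these 21, 1 rose (Lgals3), and the block called 5 higher (Lyz2, Cd68, S100a8, S100a9 and Lgals3), against 2.29% of all genes tested. Of the 28 on the array, 16 were above the median on every array. Lyz2, the lysozyme of macrophages and granulocytes, read 8.99, 9.60 and 9.99 in naive and 11.46, 10.83, 11.24 and 10.36 in memory cells (adjusted p = 0.0786). S100a8, a granulocyte protein counted above among the S100 genes, read 5.02, 7.12 and 7.08 against 9.97, 8.86, 11.74 and 8.405, highest on memory F. The S100 and annexin list summed to 31270 to 38800 in naive and 64560 to 78660 in memory cells. T cell markers summed to 9406 to 10350 against 10820 to 12330 and natural killer markers to 1746 to 2144 against 2261 to 2836. Of 16 T cell markers on the array 3 were below the median on all arrays and 3 above it on all, and of 15 natural killer markers 3 and 1. Cd2 and Cd247 made up 68 to 80.5% of the T cell sum, and without them it overlapped (1959 to 3312 against 2245 to 2437). Klra3 and Prf1 made up 47.7 to 56.1% of the natural killer sum, which overlapped without them (786 to 1043 against 1023 to 1398). Of 8 T cell markers tested Lck fell and none rose, while the block called Lck lower and Cd2 higher. In the T cell sum Cd2 stood at 12.74, 12.48 and 12.48 in naive and 12.99, 13.06, 12.92 and 12.82 in memory cells. Dendritic cell markers summed to 24720 to 26540 against 14170 to 21260, but Ly6d, also in the B cell list, and Cd83 made up 86.4 to 93% of that, and without them the sums overlapped (1724 to 2289 against 1845 to 2377). Erythroid markers summed to 6850 to 11120 against 11130 to 34850, highest on memory D. Hba-a1 and Tfrc made up 58.9 to 87.4% of that, and without them the sums overlapped (2744 to 4193 against 2344 to 4396). Hba-a1 itself did not overlap, at 10.79, 12.285 and 12.07 against 14.79, 13.37, 12.65 and 13.255. Car2, which stayed in the remaining sums, went the other way, at 11.045, 11.18 and 11.71 against 10.32, 10.285, 10.09 and 9.955. Of the 14 on the array, 5 had memory arrays wholly above the naive arrays and 1 wholly below. Of 8 erythroid markers tested, 3 had memory arrays wholly above the naive arrays and 1, Car2, wholly below (all genes tested, 6.81% and 4.49%). Car2 was the only one called, and it fell. Alas2, the haem enzyme of red cell precursors, read 3.25, 6.60 and 4.54 against 9.78, 8.21, 7.93 and 7.67 (adjusted p = 0.1). The part of such cells in the results above was not tested. In sorted cells, fewer cells of a type and less RNA per cell cannot be told apart.

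**Figure D4:**
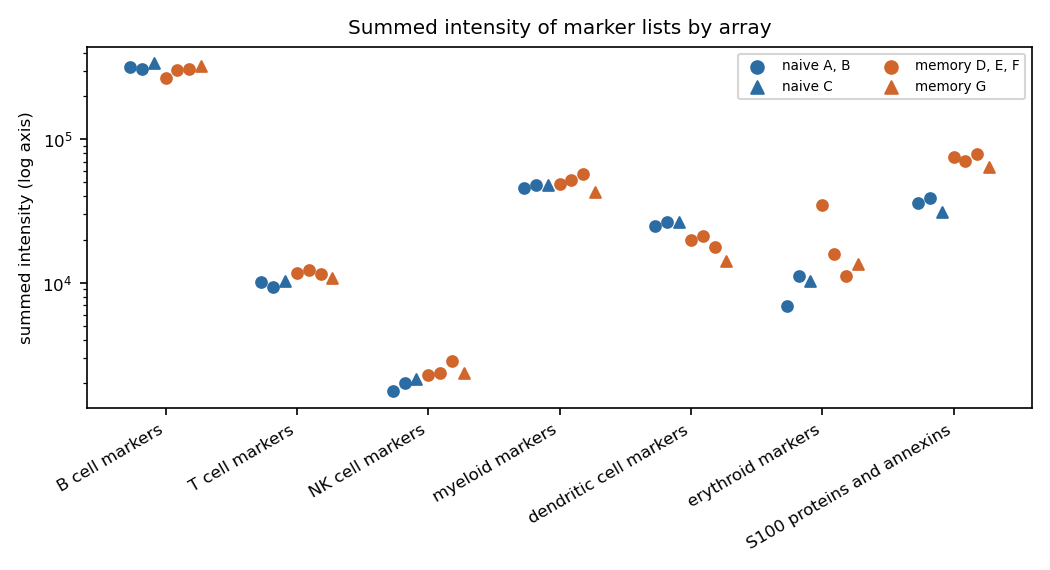
Summed linear intensity of each marker list on the 7 arrays, on a log axis (blue naive, orange memory, triangles naive C and memory G). The S100 and annexin sums of the memory arrays, 64560 to 78660, all lie above the naive arrays, whereas the myeloid sums overlap. Ctss and Cybb made up 60.8 to 77.9% of the myeloid sums, which did not overlap without them as long as Lgals3 was kept.

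The second screen measured other samples on other arrays, so it checks the direction of the calls. Of 101 genes that rose in the first screen 99 were measurable in the second, all 99 changed in the same direction and 96 were called higher there (97.0%). Over all 12895 probe sets compared, 1440 (11.2%) were called higher and 2320 (18%) lower in that screen. Of 30 genes that fell, 29 were measurable, all 29 changed in the same direction and 27 were called lower (93.1%). Among the 128 genes 87 had the larger change in the second screen (68.0%). Read the other way, 96 of the 1440 called higher in the second screen (6.67%) and 27 of the 2320 called lower (1.16%) were called in the first. The genes called with C and G as a block were checked too. Of the 350 called higher with the block and measurable, 268 were called higher in the second screen (76.6%) and 2 lower, and of the 341 called lower, 255 were called lower (74.8%) and 1 higher.

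**Figure D5:**
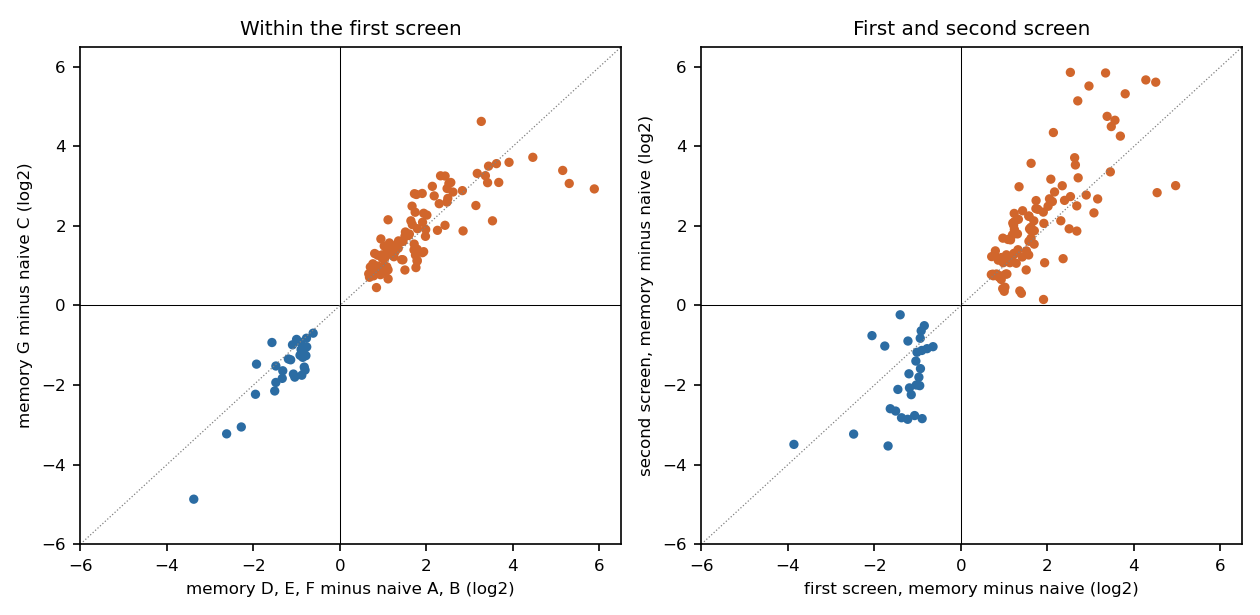
Changes of the genes called in the first screen (orange higher, blue lower in memory cells), 1 point per gene, log2 scale. Left, memory G minus naive C against memory D, E and F minus naive A and B, for 131 genes. Right, the second screen against the first, for 128 genes. All points lie in the lower left or upper right part of the plot, with the same sign on both axes, and the dotted line marks equal change. On the left this follows from the naive and memory arrays of these genes not overlapping.

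Within the called genes the size of the change differed between screens for some. Prkar2b rose by 2.70 here and by 5.14 in the second screen, and Hepacam2 by 3.34 and 5.85. Ly6a fell by 1.07 here and by 2.77 there, and Rgs10 by 0.90 and 2.84. Others were larger here, such as Pde2a (-2.06 against -0.76) and H1f2 (-1.40 against -0.23, adjusted p = 0.163 in the second screen). The difference itself passed a limma test over all 15 arrays for 15 of the genes that rose and 11 of those that fell. The screens differ in the mice, the sorter, the labelling and the processing, and these cannot be told apart. Ptpn22, called here, had a change of 0.31 in the second screen and was not called there (adjusted p = 0.358). Of the myeloid genes named above, Lgals3 changed by 1.32 (adjusted p = 2.31e-05) and Cd68 by 0.89 (0.0103) in the second screen, S100a8 by 1.52 (0.0749), S100a9 by 1.58 (0.0680) and Lyz2 by 0.05 (0.956). The erythroid gene Alas2 changed by -0.08 there (0.867).

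Probe sets that were not the one tested were compared within the first screen. They read the same RNA on the same arrays, so they check the probe set and not the difference between samples. Their share over all genes tested was not counted. Among the called genes 49 had others on the array that passed the filter, 78 in all, and 76 of these changed in the same direction as the probe set tested. Of the genes called without naive C and memory G, 351 of 404 called higher (86.9%) were also higher on memory G than on naive C, a pair that fit did not use, where 52.4% of all genes tested were. Of those called lower, 318 of 475 (66.9%) were also lower on G than on C, where 47.5% of all were.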

How the data were processed

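Each array holds 45101 probe sets, and 64 controls among them were not tested. The deposited values are linear intensities. The authors summarised the second screen with GCRMA, per the submitters' processing notes, and for the first screen no software is named in the sources used here. Ratio and p-value columns that the authors deposited were not used. Intensities were analysed as log2(intensity + 1). Probe sets had to exceed 6.98, the first screen's median, on at least 3 arrays, and 23813 did. File symbols were brought to current names with RefSeq tables. The probe set with the highest mean stood for a gene, and unnamed ones were tested on their own, 15866 in all, of which 11299 have a symbol. Memory was compared with naive cells by limma 3.58.1 with R 4.3.3 (eBayes, trend on intensity) over the 7 arrays, with Benjamini-Hochberg adjustment over all 15866 and a threshold of 0.05. The second screen and the difference between screens, a contrast over 15 arrays, were fitted with limma too. The fit was tested on simulated data. Python 3.11.15 with pandas 2.3.3, NumPy 2.4.6 and Matplotlib 3.10.9 did the rest.

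Genes were named by rule: the 15 highest and 15 lowest changes among those called with both means above the median and arrays that do not overlap, the 10 largest in each direction at any level, and up to 3 per direction of each of 70 lists, or 2 where none was called. Some genes of the rule are given only in counts. Genes said to be called with the block, and levels of marker genes, were partly chosen after their values were seen, as were the marker sums without the 2 brightest genes. The comparison, the lists and the treatment of naive C and memory G were chosen with earlier results of these data known. Nothing in the labels says whether the biological replicates are separate mice, so p-values measure the spread between these samples. Alternatives were other filters, scalings, pseudocounts, probe set rules, variance settings, a t-test per gene, the block, and leaving out arrays.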

Additional observations from a re-analysis of the deposited data

Results flagged for a closer look

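In 10 named genes 1 memory array stood far from the other 3, by Dixon's ratio of the gap to the range. Memory G did so in 7 of them: Emp1 (7.51), Bach2 (10.66), Pax5 (7.81), Pde8a (10.37), Vpreb3 (8.96), Ccr7 (10.86) and Ifi44 (10.31). In Bach2, Pax5, Pde8a, Ccr7 and Ifi44 it was the highest memory array, and in Emp1 and Vpreb3 the lowest. Memory D was the lowest array for Gimap4 (14.11) and Ifi44l (8.81), and memory E the highest for Tifa (5.23). Chance alone marks about 1 in 20 groups in this way, and the groups of 3 naive arrays were not examined.

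For 19 named genes the change in the first screen differed from that in the second by a limma contrast over 15 arrays, which pools the spread of 2 screens whose spread differs. Rises were smaller in the first screen, as first minus second on the log2 scale, for S100a6 (-1.02, adjusted p = 0.0342), Prkar2b (-2.44, 0.000144), Pdcd1lg2 (-1.10, 0.0323), Hepacam2 (-2.50, 0.0052), Slamf9 (-1.95, 0.00603) and Ass1 (-1.09, 0.0404). Falls were smaller in the first screen for Csrp2 (1.85, 0.0368), Lck (1.06, 0.0485), Rgs10 (1.95, 7.01e-05), Cpm (0.962, 0.0422), Selenop (1.15, 0.00868), Ly6a (1.70, 5.52e-05) and Egr3 (1.63, 0.0104). The same held for the interferon-stimulated genes Ifi44 (1.81, 0.00897), Usp18 (1.31, 0.0265) and Ifi44l (1.45, 0.0136), of which only Ifi44l was called in the first screen. Falls were larger in the first screen for Pde2a (-1.30, 0.0196), H1f2 (-1.17, 0.0227) and Wwc2 (-2.02, 0.00951), and Wwc2 did not pass the filter on dim probe sets in the second.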

How the results depend on the processing

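Counts of genes higher and lower (101 and 30) were 363 and 344 with naive C and memory G blocked, 404 and 475 without both, 540 and 368 with array weights and 709 and 322 when all 15 arrays shared 1 estimate of the spread. The share of calls that were higher was then 51.3%, 46%, 59.5% and 68.8%, against 77.1%. They were 51 and 14 under median centring, 44 and 10 by a t-test per gene, and 74 and 16 without the intensity trend. Leaving out 1 array gave 53 to 112 higher and 6 to 44 lower. Of 63 named genes called, 33 kept the call without any 1 array and 16 under every setting in which they were tested. A setting whose filter left a gene out, such as the stricter filter on dim probe sets, did not count as a lost call. None of the 63 changed direction where tested. Calls lost were 36 by the t-test, 24 under median centring, 22 without the trend, 12 with probe sets averaged per gene, 9 with every probe set tested, 3 with no filter, 2 with quantile normalization and 8 where a 2-fold change was required as well. Named genes that were not called kept their direction, except Xbp1, at -0.051 and at 0.009 without naive C and memory G, and Ighm, at -0.06 and from -0.12 to 0.014 when 1 array was left out. The causes were not tested. No paired analysis was possible because the naive arrays A to C and the memory arrays D to G of the first screen share no replicate letter. The files give no detection call, so dim values have no stated background.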
